A study of Mus musculus with 10 samples.

Results

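Jejunum, the middle stretch of the small intestine, was compared between mice that had undergone vertical sleeve gastrectomy (VSG) and mice that had undergone a sham operation. The comparison rests on the 2 jejunal libraries among the 10 of the series, chosen by their labels, with 1 library per group. All animals were male C57BL/6J mice, 17 weeks old, kept on a high-fat diet for 13 weeks and fasted overnight before the operation. VSG took away the lateral 80% of the stomach. The sham operation consisted of opening the peritoneum and pressing the stomach gently with hemostats, so that stomach removal is the labelled difference between the groups. For the first 3 days after surgery the mice received a liquid diet (Osmolite). The labels give neither the time from surgery to tissue collection nor the number of animals behind a library, and they do not say which stretch of the jejunum was taken. With 1 library per group there is no replicate check, no test and no p-value, and the differences below are between these libraries.

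The jejunum digests and absorbs most dietary sugar, fat and protein, and its enterocytes also oxidise and conjugate foreign compounds that arrive with food. Along the small intestine the enterocyte programme changes gradually, from a duodenal pattern of iron, calcium and fat uptake to an ileal pattern of bile acid and vitamin B12 recovery. Paneth cells at the crypt base, which are more numerous towards the ileum, secrete alpha-defensins, lysozyme and other antimicrobial proteins, and enterocytes add Reg3 lectins in response to bacteria and to interleukin-22 acting through the transcription factor STAT3.

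Of 23079 genes in the authors' table, 11681 averaged at least 1 RPKM (reads per kilobase of gene, scaled to library depth) over the 2 jejunal libraries and were kept. Differences are log2((VSG RPKM + 1)/(sham RPKM + 1)), a scale that understates the change of low genes, and a gene is called when the libraries lie at least 2-fold apart on it. Whole reads could be recovered from the values, 41647554 on genes in the sham library and 36036859 in the VSG library. They are the smallest whole numbers that fit, so the reads of a gene may be off by a common factor. The totals were 1.04 times the depth implied by the values in sham and 0.960 times in VSG. Ratios of RPKM are printed with exact 95% intervals from those reads, which cover counting error only. Both libraries carried the enterocyte markers, with 11 of 11 between 76.9 and 18545 RPKM in sham and between 69.3 and 13263.5 RPKM in VSG, while the colonic marker Hoxb13 was at 0 and 0.0406 RPKM and no stomach marker passed 12.3 RPKM in either library. The library labelled sham duodenum goes against its label and is not used here.

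In the VSG library 89 genes (0.762% of those kept) were higher and 35 (0.300%) were lower. The median difference of all genes kept was -0.02, from -0.42 at the 5th percentile to 0.39 at the 95th. The higher genes were dominated by named groups. They included 22 members of the list of pancreatic acinar enzymes, 21 alpha-defensins and the pseudogene Defa-ps1, 11 genes of the epithelial response to interleukin-22 and interleukin-17, and 6 further Paneth cell products. The lower genes included Cyp1a1, the duodenal alkaline phosphatase gene Akp3, 3 genes of the Cyp4a cluster and 4 carboxylesterases. Another 11 lower genes were small nucleolar RNAs or microRNA precursors with at most 32 reads in the sham library, and for 4 of these the interval of the ratio reached 1. The remaining 24 lower genes had at least 220 sham reads.

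**Figure D1:**
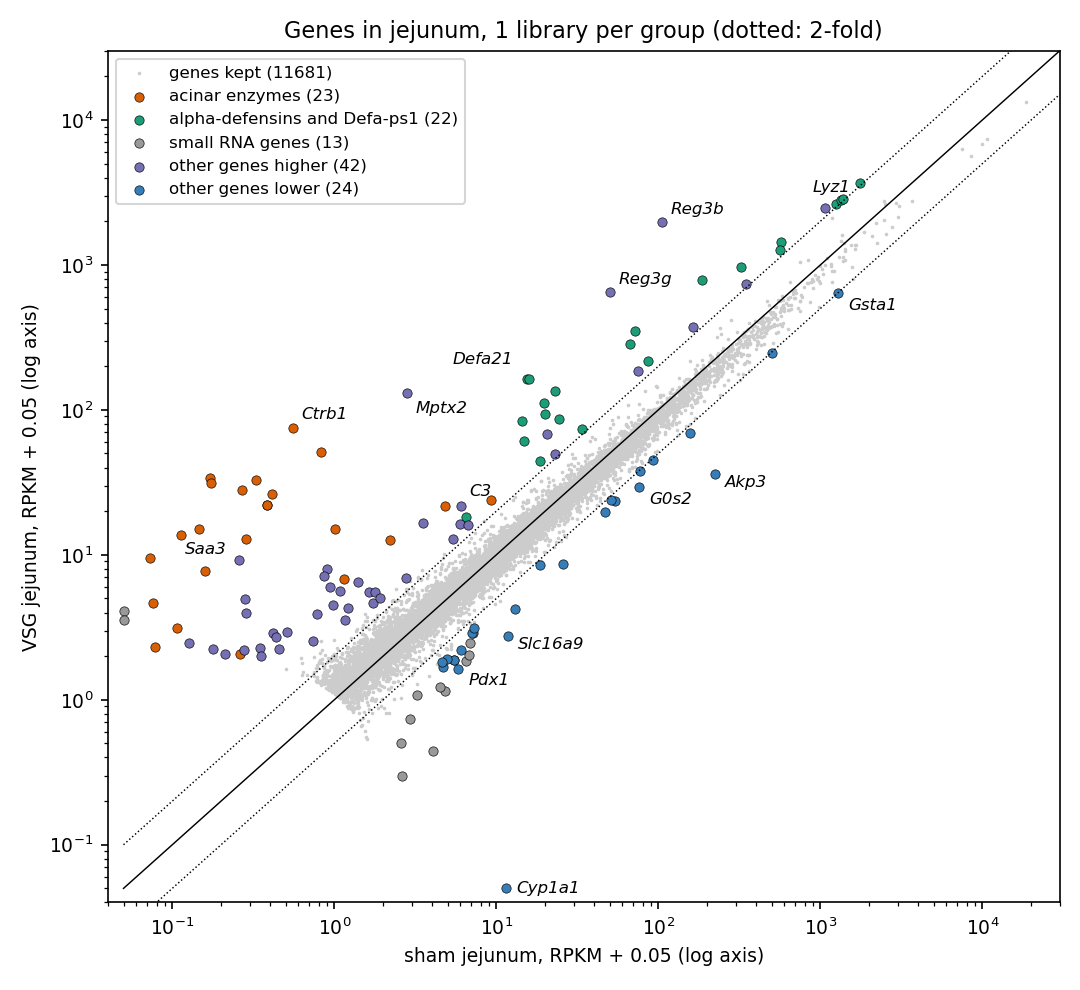
RPKM of each gene kept in sham jejunum (x axis) and VSG jejunum (y axis), both with 0.05 added and on log axes, 1 library each; coloured points are the genes called at 2-fold on the log2(RPKM + 1) scale and dotted lines mark 2-fold. Reg3b, Mptx2 and the acinar genes stand far above the diagonal, and Cyp1a1, at 0 RPKM in VSG, lies at the bottom edge.

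Alpha-defensins, the microbicidal peptides of Paneth cell granules, were higher in VSG jejunum throughout the family. Of 33 genes listed, 24 were matched in the table and kept, 24 were above 0 and 21 were called higher, with a median of 1.45 against -0.02 for all genes (background of genes called higher 0.762%). Their genes lie together on chromosome 8 (chr8:21025545-21735471, GRCm38). Several are near-identical copies, so reads may have been split or shared between them and the value of a single member is uncertain. The size of the difference followed the member's own regional range. Defa21 measured 15.5 RPKM in the sham and 164 RPKM in the VSG library, a ratio of 10.6 (95% interval 9.31 to 12.1), and Defa22 was at 15.8 and 162 RPKM. Defa20, Defa32 and Defa33 went from 19.6, 14.4 and 22.8 RPKM in sham to 111, 83.1 and 135 RPKM in VSG. These 5 genes were almost confined to ileum, with levels at least 1000 times higher in VSG ileum than in VSG duodenum, and their jejunal ratios ran from 5.68 to 10.6. The 9 members with an ileal level under 8 times the duodenal one had ratios of 1.79 to 2.99, and the 10 in between had ratios of 1.85 to 4.82. Among the 9, Defa24 had 1752 RPKM in the sham and 3681 RPKM in the VSG library, Defa31 at 1334 and 2798 RPKM, and Defa30 at 1173 and 2095 RPKM. Over the 24 genes, which share sequence and libraries, Spearman's rho between the jejunal ratio and the ratio of ileum to duodenum was 0.90. The thresholds on that ratio were set after seeing the values.

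**Figure D2:**
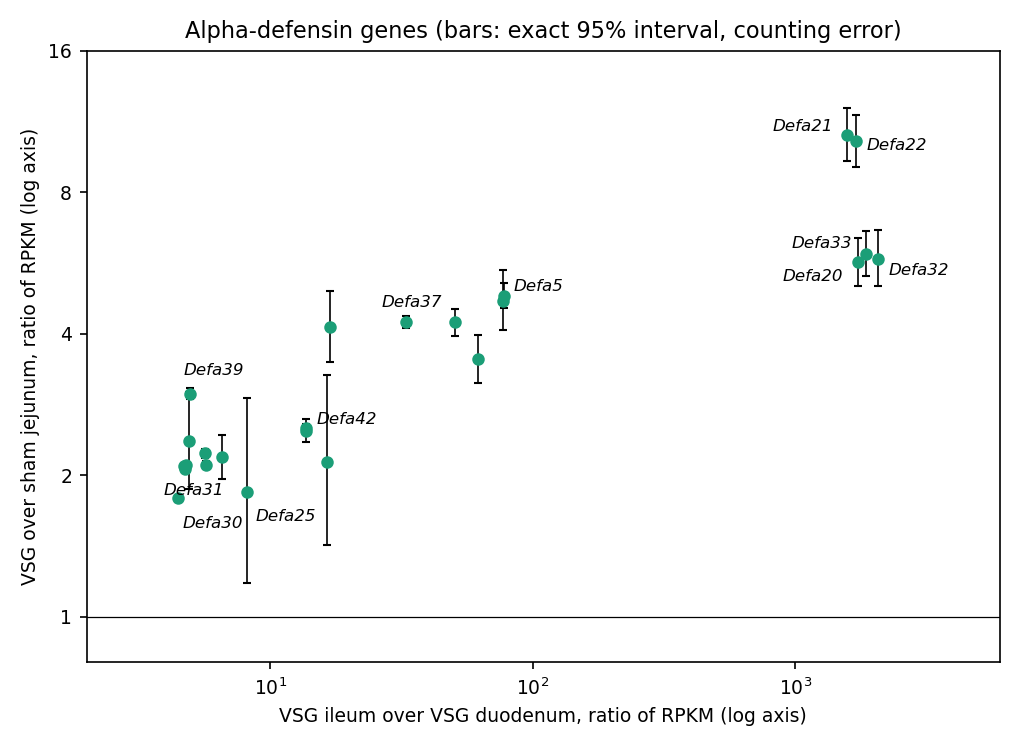
Each point is 1 of the 24 alpha-defensin genes: the ratio of RPKM in VSG ileum to VSG duodenum (x axis, log) against the ratio of VSG to sham jejunum (y axis, log), with exact 95% intervals for counting error. Defa21 and Defa22, near 10-fold in jejunum, and Defa20, Defa32 and Defa33, near 6-fold, sit at the ileal end.

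The promoters of these 2 kinds of defensin are shown because their jejunal differences diverge: Defa21 and Defa32 are ileal, Defa30 and Defa31 are found along the small intestine. Each window runs from 250 bases before to 50 bases after the RefSeq start (GRCm38.p6), 5′ to 3′ on the gene's strand. Capitals mark TATAAA and CTTTGA, the core of sites for TCF factors of the Wnt pathway, searched on both strands, so that CTTTGA on the other strand reads TCAAAG. Defa21 lies at chr8:21025295-21025594, Defa32 at chr8:21528780-21529079, Defa30 at chr8:21134400-21134699 and Defa31 at chr8:21191323-21191622, all on the plus strand.
Defa21: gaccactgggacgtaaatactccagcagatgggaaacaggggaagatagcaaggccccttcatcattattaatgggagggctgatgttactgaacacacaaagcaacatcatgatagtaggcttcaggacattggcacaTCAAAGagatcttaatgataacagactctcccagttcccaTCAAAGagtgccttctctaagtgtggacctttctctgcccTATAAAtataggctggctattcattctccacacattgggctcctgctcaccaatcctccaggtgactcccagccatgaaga
Defa32: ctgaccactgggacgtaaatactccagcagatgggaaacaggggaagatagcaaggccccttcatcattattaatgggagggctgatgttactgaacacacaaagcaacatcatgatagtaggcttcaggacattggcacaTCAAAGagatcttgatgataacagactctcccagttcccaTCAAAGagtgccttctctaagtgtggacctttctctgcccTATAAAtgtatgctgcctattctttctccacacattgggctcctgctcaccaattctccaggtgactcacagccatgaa
Defa30: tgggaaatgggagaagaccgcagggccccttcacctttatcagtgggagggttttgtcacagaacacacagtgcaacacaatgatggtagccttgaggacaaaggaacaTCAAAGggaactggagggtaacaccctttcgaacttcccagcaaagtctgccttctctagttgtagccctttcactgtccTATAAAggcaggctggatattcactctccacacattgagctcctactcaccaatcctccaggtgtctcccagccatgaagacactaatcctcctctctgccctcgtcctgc
Defa31: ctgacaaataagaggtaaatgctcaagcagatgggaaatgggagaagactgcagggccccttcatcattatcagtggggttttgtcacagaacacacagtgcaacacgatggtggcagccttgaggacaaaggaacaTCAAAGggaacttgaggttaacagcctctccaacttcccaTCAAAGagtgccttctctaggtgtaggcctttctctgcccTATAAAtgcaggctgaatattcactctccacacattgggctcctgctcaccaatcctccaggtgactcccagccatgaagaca
The Defa21, Defa32 and Defa31 windows each hold 2 TCF cores and the Defa30 window holds 1, and each window holds 1 TATAAA, with no motif overlapping another. Of 32851 RefSeq promoters of the same length, 16% hold CTTTGA and 13.6% hold TATAAA. The Defa22 window has the same sequence as that of Defa21. Defa21 and Defa32 were identical at 96.4% of alignment columns, gaps counted, whereas Defa21 was identical to Defa31 at 81.6% and to Defa30 at 65.8%. The alignment with Defa30 took 330 columns for windows of 300 bases, so gaps lower that share. TATAAA lay 61 bases before the start in Defa30 and 31 in Defa21, so these windows are offset. The motif counts did not separate Defa21 and Defa32 from Defa31, and by the shares of identical columns the windows were closer within the ileal members.

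Other Paneth cell products were higher too, with 6 of 13 kept called and 11 above 0 (median 0.95). The shares over all genes kept were 0.762% called higher and 47.0% above 0. Mptx2, a mucosal pentraxin of Paneth cells, stood at 2.77 RPKM in the sham and 131 RPKM in the VSG library, a ratio of 47.5 (95% interval 37.9 to 60.3). It was called in ileum as well, with 53.7 and 268 RPKM in sham and VSG. Lyz1, the Paneth cell lysozyme, was at 1062 and 2459 RPKM in sham and VSG jejunum, and Mmp7, the protease that activates pro-defensins in mice, at 20.6 and 68.4 RPKM. Ang4 and Itln1, a ribonuclease and a lectin of the granules, were at 74.7 and 184 RPKM and at 346 and 741 RPKM. Pla2g2a, annotated as a transcribed pseudogene in this reference strain, was at 5.31 and 12.8 RPKM. The list of stem cell and Wnt target genes, which marks the neighbouring cells of the crypt, had a median of -0.02 with 9 of 20 above 0. In bulk tissue, more Paneth cells and more RNA per Paneth cell cannot be told apart.

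Of the Reg lectins, 2 of 6 kept were called higher (0.762% of all genes) and none lower, and the family split. Reg3b, a lectin directed against bacteria and made by enterocytes, was at 105 RPKM in sham (3191 reads) and 1980.4 RPKM in VSG (56442 reads), a ratio of 18.9 (95% interval 18.2 to 19.6). Reg3g, its neighbour on chromosome 6, was at 50.1 and 645 RPKM, a ratio of 12.9 (12.2 to 13.6). Reg1 and Reg3a lay on the other side, at 634 and 358 RPKM and at 351 and 216 RPKM, and Reg4 was at 107 and 110 RPKM. For comparison, Reg3b was at 3351 and 3284 RPKM in sham and VSG ileum and at 471 RPKM in VSG duodenum. The VSG jejunal level thus stood between duodenum and ileum, and the sham jejunal level stood below both.

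The Reg3b and Reg3g promoters are shown because the pair moved together. Capitals mark TATAAA and TTCNNNGAA, the spaced palindrome read by STAT factors, both searched on both strands. Reg3b lies at chr6:78370635-78370934 on the plus strand and Reg3g at chr6:78468825-78469124 on the minus strand (RefSeq, GRCm38.p6).
Reg3b: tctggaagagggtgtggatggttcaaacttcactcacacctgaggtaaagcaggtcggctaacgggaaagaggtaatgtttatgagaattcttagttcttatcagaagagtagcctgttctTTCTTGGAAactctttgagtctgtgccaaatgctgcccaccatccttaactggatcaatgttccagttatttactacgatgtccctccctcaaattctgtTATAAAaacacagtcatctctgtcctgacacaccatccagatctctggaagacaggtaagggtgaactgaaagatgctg
Reg3g: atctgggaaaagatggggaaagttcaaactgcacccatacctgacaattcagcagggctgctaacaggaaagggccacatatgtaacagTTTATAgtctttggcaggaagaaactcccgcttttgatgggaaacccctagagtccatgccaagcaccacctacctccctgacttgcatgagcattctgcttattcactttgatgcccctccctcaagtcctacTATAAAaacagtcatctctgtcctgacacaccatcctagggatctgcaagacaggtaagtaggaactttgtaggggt
The Reg3b window holds 1 TTCNNNGAA and the Reg3g window holds none, while 8.3% of all promoters of this length hold it. TATAAA occurs 1 time in Reg3b and 2 times in Reg3g, once on each strand, and no marked motif overlaps another. The windows were identical at 68.6% of alignment columns, gaps counted. A missing match says only that these letters are not in this window.

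Genes of the epithelial response to interleukin-22 and interleukin-17 were higher as a list. Among its 34 members, 21 were kept, 11 were called higher, 1 lower and 19 were above 0, with a median of 1.05. The shares over all genes kept were 0.762% higher, 0.300% lower and 47.0% above 0. Part of the list is shared with neutrophils, and S100a8 and S100a9 are counted in both. Saa3, an acute phase apolipoprotein, was at 0.207 and 9.13 RPKM, Lcn2, which binds bacterial siderophores, at 0.818 and 7.09 RPKM, and Hp, haptoglobin, at 0.853 and 7.96 RPKM. Duox2 and its maturation factor Duoxa2, which release hydrogen peroxide at the mucosal surface, were at 0.161 and 2.02 RPKM and at 0.298 and 2.24 RPKM. Pigr, the receptor that carries IgA across the epithelium, was at 745 and 1044 RPKM, a ratio of 1.40 (95% interval 1.39 to 1.41), below the 2-fold call. The called genes other than Tifa (16.1 RPKM in VSG) stood under 10 RPKM in both libraries. Sham reads were 46 or fewer for 9 of the 11, while Tifa had 605 and the long gene Muc4 had 852. The acute phase members were also abundant in VSG stomach, a library that holds liver transcripts, with Alb at 5128 RPKM, Saa3 at 1519 RPKM, Lcn2 at 2376 RPKM and Hp at 4885 RPKM. In jejunum the liver genes Hpx and Alb were called higher as well, and the part of liver RNA in this list was not tested. Sprr1a, a small proline-rich protein of stressed epithelium, was lower, at 7.26 and 3.10 RPKM. The cytokine genes Il22, Il17a, Il17f, Il1b, Il6 and Tnf were among 15 of 24 cytokines that did not reach a mean of 1 RPKM.

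Immune cell lists differed among themselves, and few of their members were called. In the list of macrophage and dendritic cell genes, 24 of 24 kept were above 0, against 47.0% of all genes, with a median of 0.56 and 1 called. The called member was Lyz2, at 163 and 373 RPKM, a lysozyme that Paneth cells also make. Cd68 was at 3.44 and 7.78 RPKM and Itgax at 3.23 and 6.95 RPKM. Red blood cell genes, a measure of blood in the tissue, were above 0 in 5 of 5 kept, with a median of 0.59 and none called, and Hba-a2 was at 96.2 and 145 RPKM and Hbb-bs at 82.7 and 134.6 RPKM. The part of blood content in the immune lists was not tested. MHC class II genes were above 0 in 8 of 8, with a median of 0.52 and none called, led in level by the invariant chain Cd74 at 241 and 366 RPKM. Of 19 complement genes 18 were above 0 and 2 were called, C3 at 5.99 and 21.7 RPKM and Cfd at 0.231 and 4.95 RPKM. Other lists had no member called. T cell genes were above 0 in 14 of 16 (median 0.28), B cell and plasma cell genes in 8 of 11 (0.23), chemokines and their receptors in 17 of 21 (0.40) and interferon response genes in 31 of 45 (0.16). MHC class I genes were below 0 in 15 of 21, with a median of -0.12, and eosinophil and mast cell genes in 2 of 3, with a median of -0.17. The neutrophil list had 3 of 4 kept called and a median of 1.45, but rested on few reads, with S100a9 at 2 reads in sham and 59 in VSG, S100a8 at 2 and 32, and Retnlg at 12 and 78, while 8 of 12, Mpo and Elane among them, were below the filter.

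Some transcripts typical of other tissues were higher at low levels. The hepatic plasma protein genes Hpx and Alb were at 0.236 and 3.92 RPKM and at 0.927 and 4.43 RPKM, and the 5 liver markers summed to 4.08 RPKM in sham and 13.7 RPKM in VSG, with Ttr at 2.82 and 2.53 RPKM. Of the adipocyte genes, Cfd, Car3 and Adipoq were called, Adipoq with 20 reads in sham and 101 in VSG. The adipocyte markers Plin1 and Lep were at 0.104 and 0.230 RPKM and at 0.184 and 0.294 RPKM, and the 5 markers summed to 114 and 89.4 RPKM, most of it Cidec. The part of liver or fat tissue in these differences was not tested. The remaining called genes included Gsdmc2, Gsdmc3 and Gsdmc4, members of the pore-forming gasdermin family, each between 1.12 and 2.72 RPKM in sham and between 3.49 and 6.88 RPKM in VSG. Slc34a2, a sodium-phosphate cotransporter that mouse ileum uses, was at 1.74 and 5.48 RPKM. Chac1, which degrades glutathione during amino acid stress, was at 0.731 and 3.87 RPKM, and it was the only 1 of 28 genes kept in the list of unfolded protein and amino acid response that was called. Barx2, a homeobox gene, was at 5.94 and 16.3 RPKM.

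The called genes held regional positions of their own. Position was taken from libraries outside the comparison, as log2((VSG ileum RPKM + 1)/(VSG duodenum RPKM + 1)). The median over all genes kept was -0.18, with 2.64% at least 2-fold towards ileum and 6.05% towards duodenum. Of the 89 higher genes, 57.3% were at least 2-fold towards ileum and 28.1% towards duodenum, and without the acinar list and the trypsinogen-like gene 2210010C04Rik the shares were 77.3% and 3.03% of 66. Leaving out the alpha-defensins and Defa-ps1 too, 65.9% of 44 were towards ileum. Of the 35 lower genes, 0 were at least 2-fold towards ileum and 51.4% towards duodenum. With sham ileum in place of VSG ileum the shares were smaller. Then 68.2% of the 66 and 52.3% of the 44 higher genes were towards ileum. Of the lower genes, 2.86% were then towards ileum and 42.9% towards duodenum, against 2.39% and 5.50% of all genes kept. By the position from VSG ileum, the difference was graded over all genes without the acinar list. In the 58 genes more than 8-fold towards duodenum the median was -0.65, with 13.8% above 0. This group includes gastric genes, since VSG duodenum held stomach transcripts, with Gkn1 at 425 RPKM and Tff1 at 732 RPKM. The 7 gastric genes kept had a median position of -7.46 and a median jejunal difference of 0.07. The 10665 genes within 2-fold either way had a median of -0.01 with 48.2% above 0, and the 50 genes more than 8-fold towards ileum had a median of 0.66 with 72.0% above 0. If libraries of 1 surgery came from the same animals, the regional libraries and the VSG jejunal library are not independent.

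**Figure D3:**
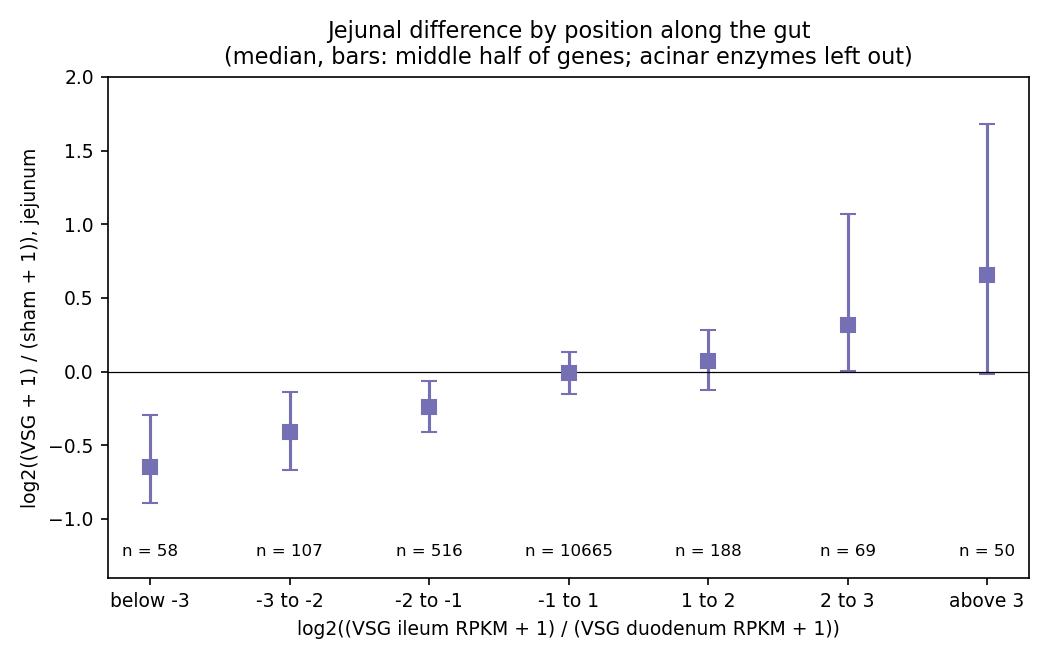
Median log2 difference in jejunum (y axis, squares; bars run from the lower to the upper quartile) for genes grouped by their log2 ratio of VSG ileum to VSG duodenum (x axis), with acinar enzymes left out and the number of genes below each group. The medians climb from -0.65 in the 58 genes at the duodenal end, which include gastric genes, to 0.66 in the 50 genes at the ileal end.

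Duodenal genes gave the lower end. Akp3, an intestinal alkaline phosphatase, was at 223 RPKM in sham, 36.0 RPKM in VSG and 3174 RPKM in VSG duodenum, and was 6.18-fold lower in VSG jejunum (95% interval 5.98 to 6.39). Its neighbour Alpi was at 1585 and 804 RPKM and did not reach the call. Pdx1, the homeobox factor of duodenum and pancreas, was at 5.75 and 1.59 RPKM in jejunum and 67.5 RPKM in VSG duodenum. Otop3, a proton channel gene, was at 25.8 and 8.56 RPKM, and Slc16a9, a carnitine transporter gene, at 11.7 and 2.69 RPKM. The list of proximal small intestine identity was above 0 in 3 of 17 kept, with a median of -0.36. Not all of its members moved, since Onecut2 was at 6.34 and 7.10 RPKM, Gata4 at 53.3 and 48.5 RPKM and Dnase1 at 122 and 128 RPKM.

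The ileal bile acid genes Fabp6, Slc10a2 and Fgf15 were near the floor in both jejunal libraries. They fell below the filter and do not enter list medians. Fabp6, the ileal bile acid binding protein, had 1.03 RPKM in sham (16 reads) and 0.344 RPKM in VSG (5 reads), against 4449 RPKM in VSG ileum. Slc10a2, the ileal bile acid transporter, was at 0.275 and 0.490 RPKM (18 and 30 reads). Fgf15, the hormone that it induces through bile acids, was at 0 in both. Osr2, a transcription factor gene of the distal gut, was at 8.36 and 11.5 RPKM, against 0.0298 RPKM in VSG duodenum. The list of ileum identity had a median of -0.18 with 6 of 14 kept above 0. Its called member, Slc28a1, was lower, but was no higher in ileum, at 26.9 RPKM in VSG duodenum and 14.4 RPKM in VSG ileum. Outside the list, the called gene Slc34a2 was ileal and higher, at 0.0136 RPKM in VSG duodenum and 109 RPKM in VSG ileum. Whether the 2 libraries came from the same stretch of jejunum is not given in the labels, and a difference in the stretch sampled and a difference after surgery cannot be told apart.

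Cyp1a1, a cytochrome P450 that the aryl hydrocarbon receptor switches on in response to dietary and environmental ligands, was at 11.4 RPKM in sham jejunum (1270 reads) and at 0 in VSG jejunum. Against a floor of 3 reads in the VSG library it was 396-fold lower, and by the exact counting interval at least 321.8-fold lower. In ileum it was at 3.70 RPKM in sham (515 reads) and also at 0 in VSG, while VSG duodenum held 0.798 RPKM. Of the 9 genes kept in the list of receptor targets, Cyp1a1 was the 1 called, and the other 8 were within 2-fold (list median -0.07). Ahr, the receptor itself, was at 4.45 and 5.61 RPKM, Tiparp, another target, at 7.38 and 8.38 RPKM, and Nqo1 at 39.2 and 25.8 RPKM. Cyp1b1, Cyp1a2 and the receptor's repressor Ahrr were below the filter.

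The Cyp1a1 promoter is shown as that of the called gene with 0 reads in VSG. It lies at chr9:57697363-57697662 on the plus strand (RefSeq, GRCm38.p6), and capitals mark GCGTG, the core that the receptor complex binds, and TATAAA, both searched on both strands.
Cyp1a1: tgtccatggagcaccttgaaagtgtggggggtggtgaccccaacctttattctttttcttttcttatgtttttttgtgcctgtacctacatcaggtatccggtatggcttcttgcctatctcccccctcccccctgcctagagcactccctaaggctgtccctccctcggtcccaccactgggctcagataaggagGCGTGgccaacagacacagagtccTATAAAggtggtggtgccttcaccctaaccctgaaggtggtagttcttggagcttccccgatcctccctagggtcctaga
The window holds 1 GCGTG and 1 TATAAA, which do not overlap, and 32.4% of all promoters of this length hold GCGTG. The enhancer sites known for this gene lie further upstream, outside the window.

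Enzymes that modify foreign compounds were lower as groups, mostly by less than 2-fold. Of 13 carboxylesterases kept, 0 were above 0, 4 were called lower and the median was -0.73. Over all genes kept the shares were 47.0% above 0 and 0.300% called lower, and 18.6% above 0 among those averaging at least 50 RPKM. Ces1f was at 156 and 68.7 RPKM and Ces1d at 18.6 and 8.44 RPKM, while Ces2c, a more abundant member, was at 858 and 551 RPKM. Members of the Ces1 cluster are similar in sequence, so single values are uncertain. Of 26 glutathione transferases and related genes, 1 was above 0 and 1 was called lower, with a median of -0.53. That gene was Gsta1, at 1287 and 637 RPKM, and its close relative Gsta2 was at 319 and 160 RPKM. Among cytochromes P450 of families 2 and 3, 4 of 28 were above 0 and none was called, with a median of -0.48, and Cyp3a11 stood at 156 and 79.3 RPKM and Cyp2b10 at 132 and 67.2 RPKM. The Cyp4a genes, targets of PPAR alpha that hydroxylate fatty acids, gave 3 calls among 13 genes of family 4, with Cyp4a10 at 47.1 and 19.6 RPKM, Cyp4a31 at 6.04 and 2.16 RPKM and Cyp4a32 at 13.1 and 4.16 RPKM. Glucuronosyl- and sulfotransferases had a median of -0.36 with 3 of 20 above 0, and Sult1b1 was at 142 RPKM in both libraries. Aldh1a1, which makes retinoic acid, was at 505 and 245 RPKM.

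Several lists of nutrient handling were lower as well, mostly by less than 2-fold, and the disaccharidases ranged from level to lower. Some lay nearer 0, with medians of -0.04 for calcium and phosphate and -0.16 for peptide digestion and amino acid uptake. Iron, copper, zinc and manganese genes had -0.14 and salt, bicarbonate and water genes -0.15. Among all genes kept, 47.0% were above 0 and 0.300% were called lower. Among those averaging at least 50 RPKM, 18.6% were above 0, with a median of -0.18. Fatty acid oxidation and PPAR alpha targets were above 0 in 4 of 50, with a median of -0.34 and 1 called. G0s2, an inhibitor of triglyceride lipase, was at 75.8 and 29.1 RPKM, Acaa1b at 168 and 87.9 RPKM, and Pdk4, which holds back glucose oxidation, at 26.2 and 13.7 RPKM. Of 33 fat absorption genes 4 lay above 0 and none was called, the median being -0.28. Apoa4, an apolipoprotein of chylomicrons, was at 18545 and 13263.5 RPKM, and Fabp1 at 10739 and 7404 RPKM. In the sugar list 2 of 27 were above 0 and the median was -0.37. Pck1, a key enzyme of gluconeogenesis, was at 53.7 and 23.4 RPKM and was the called member, while Slc5a1, the glucose cotransporter, at 1101 and 1109 RPKM. Of the disaccharidases, Sis, sucrase-isomaltase, was at 995 and 989.8 RPKM, Mgam, maltase-glucoamylase, at 532 and 516 RPKM and Lct, lactase, at 398 and 335 RPKM. Treh, trehalase, which was named after its values were seen, was at 399.8 and 264 RPKM. Ada, a purine salvage enzyme, was at 979 and 513 RPKM and Slc28a1, a nucleoside transporter, at 76.7 and 37.8 RPKM. Me1, which supplies NADPH for fat synthesis, was called lower at 92.9 and 44.8 RPKM, although the list of fatty acid synthesis had a median of 0.03. Nuclear oxidative phosphorylation subunits were above 0 in 0 of 77, with a median of -0.28, a highest value of -0.04 and none called.

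Many gene groups stayed near the centre, with none of their members called. For proliferation genes the median was -0.00, 19 of 39 lying above 0, and Mki67 was at 9.98 and 13.1 RPKM. For goblet cell genes it was 0.03, 10 of 18 lying above 0, and for tuft cell genes 0.06, with 10 of 17. Smooth muscle genes had a median of 0.03, and Acta2 was at 102 RPKM in both libraries. Sterol synthesis had a median of -0.02 and the circadian clock list one of -0.08. Among gut hormones, Gip was at 130 and 97.2 RPKM and Cck at 48.2 and 32.7 RPKM, while Gcg, the source of GLP-1, was at 18.7 and 22.3 RPKM, all within 2-fold.

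**Figure D4:**
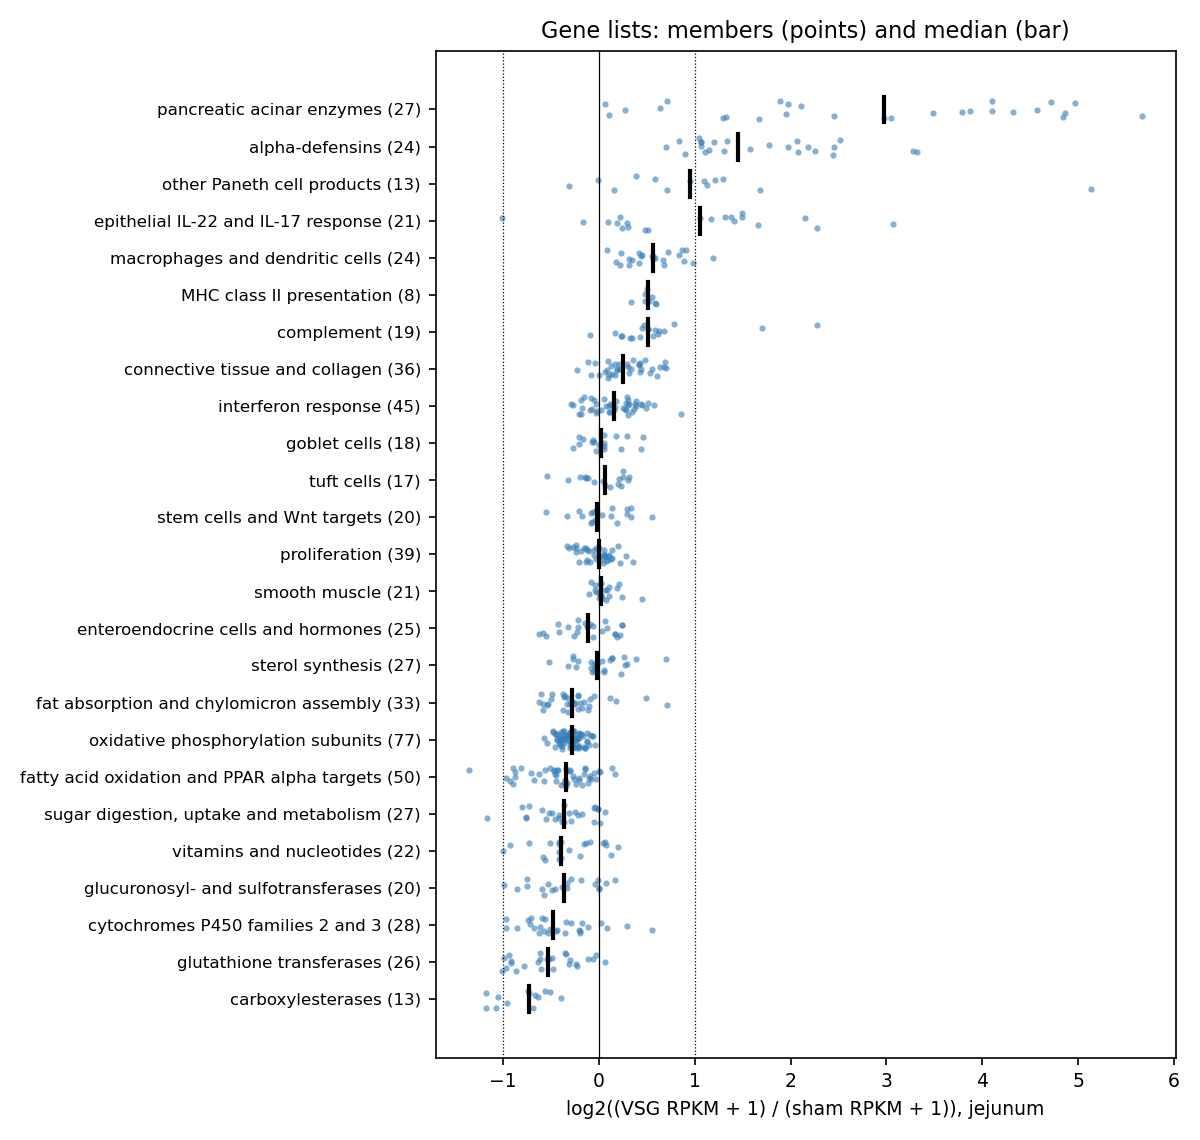
Log2 difference between VSG and sham jejunum (x axis) for the genes kept in each of 25 lists, with members as points, the list median as a bar and the number kept in brackets; dotted lines mark 2-fold. Acinar, Paneth cell and interleukin response lists lie to the right, and detoxification and nutrient lists to the left of 0.

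Pancreatic acinar genes were higher in VSG jejunum, most of them from low sham levels. Of 27 kept, 27 were above 0 and 22 were called higher, against 47.0% and 0.762% of all genes, with a median of 2.97. The 31 members matched, kept or not, summed to 498 RPKM in the sham and 999 RPKM in the VSG library. Much of the sham sum came from members that were not called, led by Spink1, a trypsin inhibitor, at 392 and 409.5 RPKM, with Clps, colipase, at 51.5 and 84.8 RPKM and Pnliprp2, a lipase, at 28.5 and 34.6 RPKM. Ctrb1, chymotrypsinogen, was at 0.506 RPKM in sham (18 reads) and 75.4 RPKM in VSG (2511 reads), and Cpa1, a carboxypeptidase, at 0.0632 and 13.7 RPKM. The amylase genes Amy2a2, Amy2a3 and Amy2a5 are near-identical copies, and their values (0.337 and 21.9 RPKM for Amy2a2) are uncertain. The 18 called genes under 1 RPKM in sham were chosen for that pattern, so their sums of 4.84 RPKM in sham and 398 RPKM in VSG jejunum are a description of the choice. In the other libraries, which the choice did not use, their sum was 4294 RPKM in VSG duodenum, 2569 RPKM in VSG stomach, 454 RPKM in sham stomach, 708 RPKM in VSG colon, 6.33 RPKM in sham colon, and 10.8 and 6.71 RPKM in sham and VSG ileum. In sham stomach the sum rested on other members, with Try4 at 122 RPKM and Amy2a5 at 115 RPKM but Ctrb1 at 0.633 RPKM and Cpa1 at 0.0808 RPKM. Among the VSG libraries the proportions were closer, since each gene stood in VSG jejunum at 0.0680 to 0.129 times its level in VSG duodenum. The islet genes Ins1 and Ins2 were at 0 in both jejunal libraries, and at 1.53 and 5.16 RPKM in VSG duodenum. The part of pancreatic tissue, or of RNA from another library, in this difference was not tested.

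**Figure D5:**
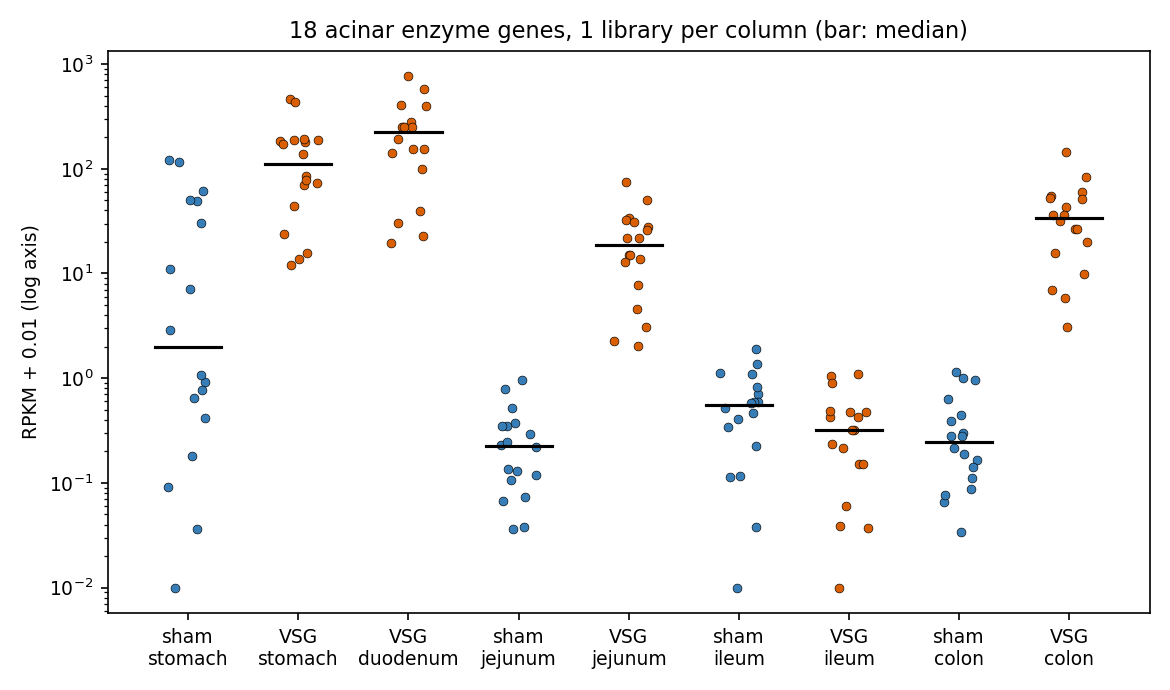
RPKM with 0.01 added (y axis, log) of the 18 acinar enzyme genes called in jejunum with under 1 RPKM in sham, in 9 libraries (x axis); points are genes and bars medians. VSG stomach, duodenum, jejunum and colon are high for all 18 genes, sham stomach runs from 0 to 122 RPKM, and both ileum libraries and the sham jejunum and colon libraries are low.

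Beyond these groups the difference moved with properties of the transcripts. Over 11470 genes, Spearman's rho between the jejunal difference and GC content was -0.38 and that with gene length was 0.30. Gene length was inferred from the values and recovered reads, so it may be off where those reads are. In 5 groups of equal size the median ran from 0.11 at the lowest GC content to -0.14 at the highest, and from -0.14 in the shortest genes to 0.08 in the longest. The corresponding rho for GC content was -0.20 in ileum and 0.25 in colon. The 1438 genes averaging at least 50 RPKM had a median of -0.18, with 18.6% above 0. The part of GC content, length and level in the small list medians was not tested, but after centring within the groups of GC content and length the median was -0.16 for oxidative phosphorylation subunits, -0.65 for carboxylesterases and -0.41 for glutathione transferases. For alpha-defensins the centred median was 1.42, but only over the 79.2% of them with a GC value, so this check is incomplete.

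Ileum and colon were set beside jejunum. In ileum 0.148% of genes were called higher and 0.123% lower, with 51.8% of differences above 0. In colon the shares were 0.432% and 0.0463%, with 49.6% above 0. With ileum, jejunum shared 6 higher genes (6.74% of the jejunal and 33.3% of the ileal calls), namely Mptx2, Cfd, Duoxa2, Gsdmc2, Gsdmc3 and 1 gene without a symbol. It shared 3 lower genes with ileum, Cyp1a1, Ces1f and Snora31. With colon it shared 32 higher genes (36.0% of the jejunal and 57.1% of the colonic calls), 21 of them acinar with 2210010C04Rik counted among these, and among the others were C3, Cfd, Car3, S100a8, S100a9, Gpnmb and 5 alpha-defensins. In colon these defensins stood between 0.556 and 1.59 RPKM in sham and between 3.00 and 6.02 RPKM in VSG. Differences between the tissues were not tested, since each tissue has 1 library per group.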

How the data were processed

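Total RNA from stomach, duodenum, jejunum, ileum and colon was, per the labels' protocols, isolated by TRIzol and prepared with a TruSeq RNA kit. Tools listed by the submitters' processing notes are GSNAP and Cufflinks, without version or role, beside mouse build mm10. Annotation and filtering by the authors were not stated. RPKM values, made by the authors, were deposited as 1 table of 23079 Entrez identifiers, of which 23008 (99.7%) matched a RefSeq symbol. In 18187 rows the intestinal columns stood 1 row below the identifiers and were moved back. Of sampled rows with values in all libraries, 21 of 933 returned whole reads as deposited and 1023 of 1024 after the move, within 0.001 reads. Whole reads came back for 18565 of 18580 genes above 0 in at least 4 libraries (99.9%), at a depth scale from 2252 single-transcript genes. Reads served for intervals (Clopper-Pearson, 95%), a floor of 3 reads, the gene lengths implied by the values and a rescaling to equal recovered reads. No count test was run, since each group has 1 library. The procedure was tested on simulated data. Python 3.11.15 with numpy 2.4.6, pandas 2.3.3, scipy 1.17.1, matplotlib 3.10.9 and, for alignments of promoters, Biopython 1.88 was used. Genes named are those called, the extremes and most abundant members of 68 lists, list members below the filter and cell type markers. Members and lists were chosen with earlier results of these data known. Alternatives covered pseudocounts, filters, rescaling, the row repair and, added after seeing the data, GC content with length and small RNA genes.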

Additional observations from a re-analysis of the deposited data

Results flagged for a closer look

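A few genes were called in opposite directions in jejunum and in another tissue, each from 1 library per group, and these differences were not tested. Reg3b differed by 4.23 in jejunum and by -1.39 in colon on the log2 scale, and Reg3g by 3.66 and -1.04. Saa1, an acute phase gene, differed by 1.41 in jejunum (13 reads in sham and 76 in VSG) and by -1.67 in ileum (1046 and 237 reads). Snord38a, a small nucleolar RNA with 6 reads in sham and 1 in VSG jejunum, differed by -1.28 there and by 1.73 in colon, where it had 1 and 8 reads.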

How the results depend on the processing

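No paired analysis was possible because the labels give 1 library per group, so no replicate could be left out either. The counts of 89 higher and 35 lower genes moved with the pseudocount, to 137 and 68 at 0.1 RPKM and to 53 and 10 at 5 RPKM, and with a mean of at least 5 RPKM, to 52 and 16. Lower genes numbered 23 both after rescaling to equal recovered reads and after rescaling to the RPKM total without the acinar list and the 10 highest genes, and 22 when the exact interval had to lie wholly past 2-fold. Lists with a median of at least 0.25 numbered 14 and were 9 at a pseudocount of 5 RPKM. Lists at -0.25 or below numbered 16, and were 9 under either rescaling and 10 after centring within 5 groups each of GC content and length, an alternative chosen after seeing the data. Genes called alike in jejunum and ileum numbered 9, and were 17 and 1 at pseudocounts of 0.1 and 5 RPKM and 2 at a mean of at least 5 RPKM. In colon the corresponding 33 became 16 at a pseudocount of 5 RPKM and 15 at a mean of at least 5 RPKM. Among 123 called genes with a symbol, 60 fell below 2-fold at a pseudocount of 5 RPKM and 12 under either rescaling. Centring on the median of all genes took 4 below 2-fold. Centring by GC content and length took 11 of the 118 with a GC value below it. None changed direction, but a pseudocount cannot change a direction. The rescalings moved the median of all genes by only 0.0955 and 0.0960, so direction is no check under these settings. With rows as deposited both jejunal columns shift together, so the counts of 89 and 35 are the same, but only 36 of the higher and 13 of the lower identifiers are shared, and single genes and lists were not run that way. Low counts limit genes near 1 RPKM, and the lack of replicates limits all results.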
